A study of Mus musculus with 10 samples.

Results

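Immediate early genes are switched on within minutes of a signal, without new protein synthesis, by transcription factors that already wait in the cell. Growth factor, stress and cytokine signals reach them through MAP kinases that act on serum response factor (SRF) with its ternary complex partners, and through CREB. Most of their products are transcription factors themselves, among them the FOS and JUN proteins that pair as AP-1, and their mRNAs are short-lived, since AU-rich elements mark many of them for decay. In haematopoietic cells they are known both as part of the normal response to signals and as genes that respond to the handling of tissue. The 10 genes described here are Fos, Fosb, Jun, Junb, Jund, Egr1, Ier2, Atf3, Zfp36 and Nr4a1, taken by symbol from the 51456 gene IDs of the deposited table after matching the IDs to GENCODE. All 10 were found, and the rule that took them used no measured value.

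The samples were mouse bone marrow cells sorted by surface markers, with 5 libraries in each group. The LSC group was labelled leukaemia stem cells, sorted as Lin- Sca-1- cells that were also c-Kit+, CD16/32+ and CD34+, from mice with acute myeloid leukaemia (AML) driven by the MLL-AF9 fusion. The HSC group was labelled haematopoietic stem cells, sorted as CD48- CD150+ cells within the LSK population (lineage-negative, Sca-1-positive, c-Kit-positive), from C57BL/6J mice labelled wild-type. The labels also give Wild-type as the genotype of the LSC samples and do not say how the fusion was introduced, the strain of the leukaemic mice, or the age of any mouse. Disease and sort gate differ together between the groups and cannot be told apart. The labels number the libraries 1 to 5 in each group and do not say that they came from separate mice, so every p-value measures only the spread between these libraries, which may be technical. Levels are in FPKM, fragments per kilobase of transcript scaled to library size, so levels of different genes can be set side by side.

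The RNA of the sort markers did not follow the labels throughout, and the libraries are therefore called LSC-labelled and HSC-labelled. Ly6a, which encodes Sca-1, averaged 74.2 ± 24.8 FPKM in LSC-labelled libraries and 0.920 ± 0.917 FPKM in HSC-labelled libraries (SD, n = 5 each). Slamf1, which encodes CD150, was also higher in LSC-labelled libraries, and Fcgr3 and Fcgr2b, which encode CD16 and CD32, were lower there; these 4 run against the gates. Kit and Cd34 were higher in LSC-labelled libraries. Cd48 did not pass the test, at 152.7 ± 11.8 FPKM in LSC-labelled and 130.3 ± 23.0 FPKM in HSC-labelled libraries, so its RNA was abundant in the HSC-labelled group although that gate was CD48-. FPKM values step in whole reads, and these steps put the depth at 33400000 to 70300000 reads in LSC-labelled and 26400000 to 55400000 in HSC-labelled libraries. The ribosomal RNA share of the FPKM sum is given by library further on, beside the result it touches.

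Marker genes of other cell types differed between the groups as well. Of the tested markers of neutrophils 9 of 10 were higher in LSC-labelled libraries, of erythroid cells 6 of 10, of megakaryocytes and platelets 9 of 9, of B cells 5 of 7, of T and NK cells 4 of 5, of mast cells and basophils 7 of 8, and of endothelium and stroma 7 of 8. Of 12 markers of monocytes and macrophages, 5 were lower and 0 higher. Among all genes tested, 27.2% were higher and 13.8% lower by the same test, which is described further on. The summed level of the monocyte list ran from 1505 to 2733 FPKM in LSC-labelled and from 4005 to 4831 in HSC-labelled libraries, with Lyz2 the most abundant member. The neutrophil list, led by S100a8, summed to between 1726 and 20110 FPKM in LSC-labelled and between 596 and 3353 in HSC-labelled libraries. Sums in LSC-labelled and HSC-labelled libraries were 1433 to 2951 and 128.3 to 1697 FPKM for erythroid genes (led by Car1). For megakaryocyte genes (Pf4) they were 816.5 to 1318 and 19.1 to 282.5. For mast cell and basophil genes (Prss34) they were 1134 to 2467 and 87.6 to 324.6. They were 206.4 to 644.5 and 81.2 to 264.5 for B cell genes (Ighm), 23.1 to 56.5 and 3.62 to 11.2 for T and NK cell genes (Gzma), and 242.7 to 881.9 and 20.1 to 53.7 for stromal genes (Bglap). Gp1bb of the megakaryocyte list and Cma1 of the mast cell and basophil list were listed at 0 in at least 1 HSC-labelled library. No marker was at 0 in any LSC-labelled library. The leading genes named above are the most abundant over all 10 libraries. In HSC-labelled libraries alone Prg2 led the mast cell and basophil list (60.8 FPKM). There Cd4 led the T and NK cell list (2.62) and Pecam1 the stromal list (38.7). The part of other cells in the levels below was not tested. In bulk samples a smaller share of cells that carry a transcript and less of it per cell cannot be told apart.

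Egr1 and Ier2 were left out of the promoter search, so the motif counts do not cover them. For the other 8 of the 10 genes the 250 bases before the RefSeq (GRCm38.p6) transcription start were taken as windows. These windows are shown because the genes moved together from library to library, as described further on. The windows were searched on both strands for the CArG box that SRF binds, for TGACGTCA and TGACG (CREB and ATF sites; the shorter lies within the longer), for TGAGTCA with its other strand TGACTCA (AP-1), and for GCGGGGGCG (EGR1). Capitals mark the matches, which appear in reverse complement where they lie on the other strand; positions count back from the start, the base before it being -1. Fos (chr12:85473640-85473889, plus strand) held TGACG at -129 and -66. Fosb (chr7:19310046-19310295, minus strand) held TGACG at -60 and GCGGGGGCG at -50. Nr4a1 (chr15:101266596-101266845, plus strand) held TGACG at -233, -213, -69 and -40 and GCGGGGGCG at -60, each on the other strand. Zfp36 (chr7:28379229-28379478, minus strand) held GCGGGGGCG at -105 and a CArG box at -58.
Fos: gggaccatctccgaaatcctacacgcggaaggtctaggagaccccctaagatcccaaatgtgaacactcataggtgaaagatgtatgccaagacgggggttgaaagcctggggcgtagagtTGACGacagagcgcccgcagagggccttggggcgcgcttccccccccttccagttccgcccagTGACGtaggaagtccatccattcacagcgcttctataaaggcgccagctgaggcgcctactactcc
Fosb: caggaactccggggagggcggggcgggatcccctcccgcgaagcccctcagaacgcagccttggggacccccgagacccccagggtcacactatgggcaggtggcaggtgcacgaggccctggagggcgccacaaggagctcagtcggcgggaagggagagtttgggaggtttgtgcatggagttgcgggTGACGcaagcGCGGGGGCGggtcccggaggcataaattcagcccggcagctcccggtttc
Nr4a1: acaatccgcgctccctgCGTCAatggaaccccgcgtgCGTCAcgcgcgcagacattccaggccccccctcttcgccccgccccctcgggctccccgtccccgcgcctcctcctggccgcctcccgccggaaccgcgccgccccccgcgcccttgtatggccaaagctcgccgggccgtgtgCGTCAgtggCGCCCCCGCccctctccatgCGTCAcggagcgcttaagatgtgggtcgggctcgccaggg
Zfp36: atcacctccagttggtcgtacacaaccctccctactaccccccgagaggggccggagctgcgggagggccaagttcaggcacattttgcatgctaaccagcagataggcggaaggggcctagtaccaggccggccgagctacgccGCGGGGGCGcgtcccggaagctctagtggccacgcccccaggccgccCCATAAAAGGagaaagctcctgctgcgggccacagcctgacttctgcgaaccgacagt

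Of the further windows, Junb held TGACG at -106 and Atf3 at -7, while Jun and Jund held none of the motifs. TGACG was thus in 5 of the 8 windows, against 17.8% of all 32851 RefSeq promoter windows of this length. GCGGGGGCG was in 3 of 8 against 2.57%, and the CArG box in 1 of 8 against 1.47%. TGACGTCA and TGAGTCA, at 1.55% and 4.46% of all windows, were in 0 of 8. RefSeq and GENCODE starts differ for some genes: the windows of Zfp36, Nr4a1 and Atf3 lie inside the GENCODE spans given below, and that of Jund ends before the GENCODE start without touching it. A match is a run of letters in this window and does not show a bound site. Bases farther upstream or after the start were not searched. A motif missing from a window was therefore not shown to be missing from the gene's regulatory sequence.

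The members spanned a wide range of levels, with nearly the same order in both groups. In LSC-labelled libraries Fos (80.9 FPKM on average) and Ier2 (79.0) came first, then Jun (38.1), Zfp36 (33.7) and Junb (32.7), then Nr4a1 (10.4), Egr1 (4.88), Fosb (2.60), Atf3 (1.22) and Jund (1.18). In HSC-labelled libraries the order was Ier2 (134.9), Fos (88.5), Jun (59.3), Junb (49.5), Zfp36 (46.3), Nr4a1 (9.36), Egr1 (2.23), Atf3 (2.17), Fosb (1.96) and Jund (1.08). The range of each member overlapped that of its neighbour in both orders. Read library by library, some steps held in all 5: Ier2 above Jun, Junb above Nr4a1, Nr4a1 above Egr1, Egr1 above Fosb and Fosb above Atf3 in LSC-labelled libraries, and Ier2 above Fos, Fos above Jun, Zfp36 above Nr4a1 and Nr4a1 above Egr1 in HSC-labelled ones. Fos and Ier2 held their order in only 3 of 5 LSC-labelled libraries, so their places there do not differ beyond the spread.

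**Figure D1:**
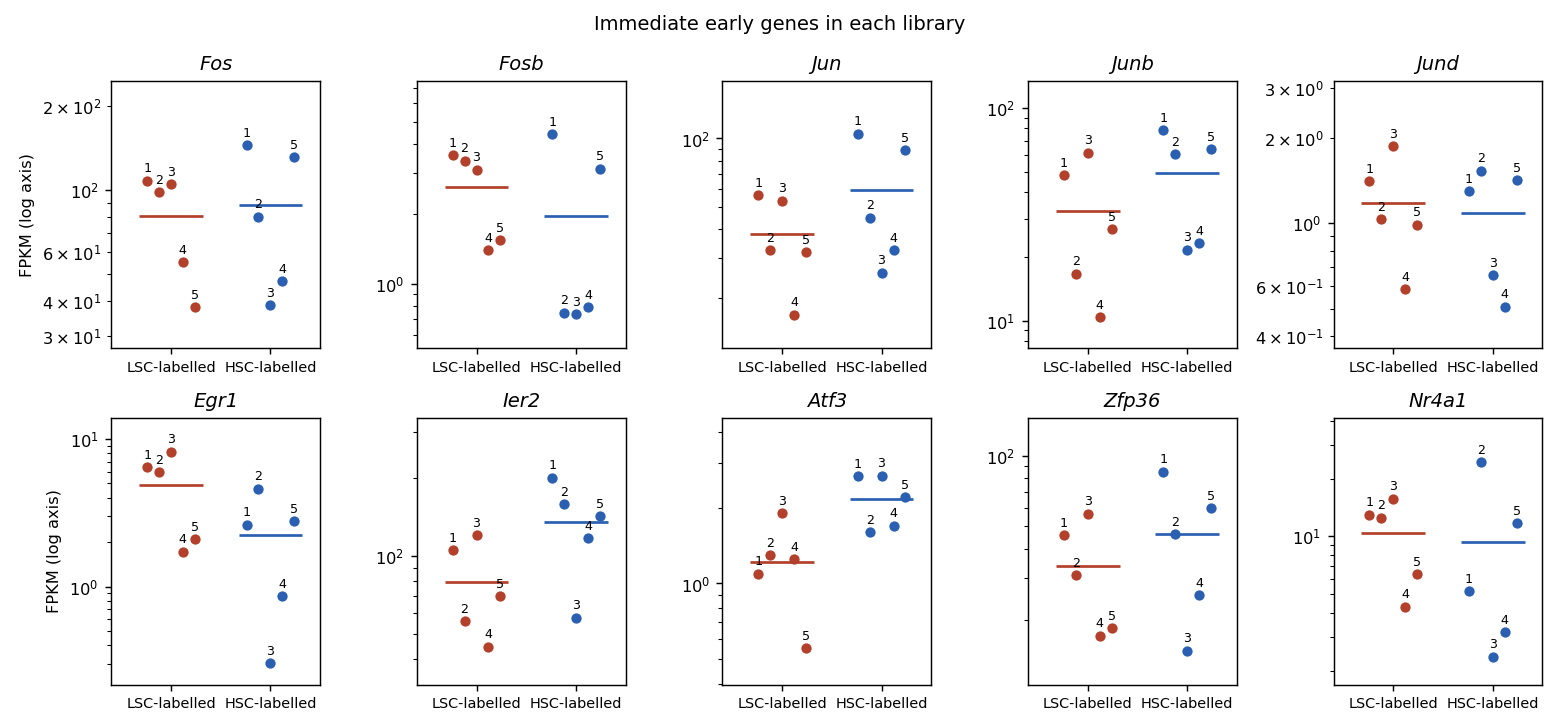
FPKM of the 10 immediate early genes in each library on a log scale, LSC-labelled left of HSC-labelled, with digits for the library numbers and lines for the group means. Every gene's groups overlap, and libraries 4 and 5 of the LSC-labelled group and 3 and 4 of the HSC-labelled group lie low for most genes.

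Of the 10 members, 1 passed the test between groups: Atf3 was lower in LSC-labelled libraries, 0 were higher and 9 did not pass. The test was limma on log2(FPKM + 1), LSC-labelled minus HSC-labelled, with Benjamini-Hochberg adjustment across the 13431 genes in the fit and a threshold of 0.05. By the same rule 41% of all genes tested passed, 27.2% higher and 13.8% lower, so that 66.3% of the calls were higher (50.8%, 49.6% and 52.2% under the scalings named next). Their median log2 fold change was -0.20, against 0.11 over all genes tested, and 4 lay above 0 and 6 below. Other scalings (median-of-ratios, quantile, and removal of GC and length trends) gave members' medians of -0.34, -0.34 and -0.35, against -0.01, -0.02 and 0.01 over all genes tested. The groups did not overlap for 0 of the 10 members, against 29.8% of all genes tested (20% with every LSC-labelled value higher and 9.8% with every one lower). Standard errors were wide: the median was 0.417 for the members and 0.131 over all genes tested. A difference that missed the threshold was therefore not shown to be absent, and the intervals below give the sizes that these libraries allow.

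**Figure D2:**
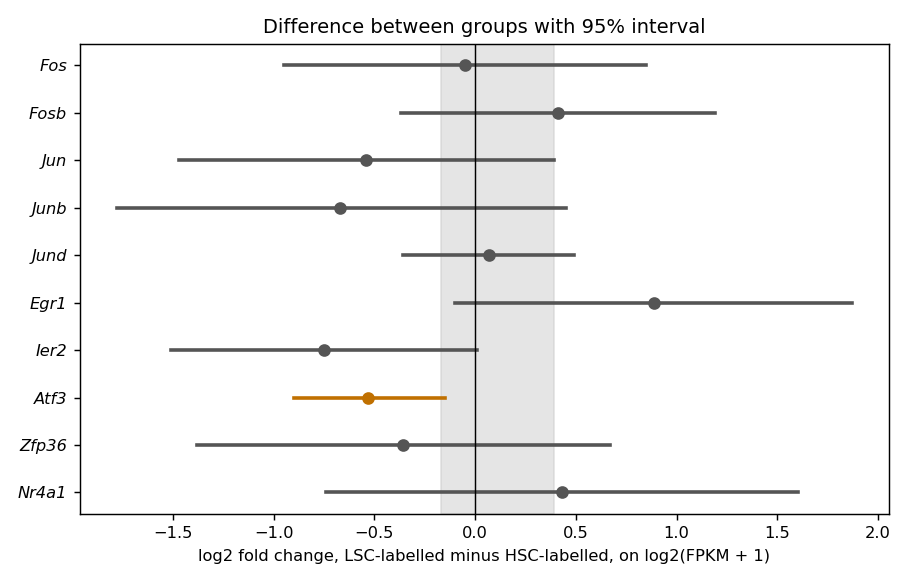
Log2 fold change (LSC-labelled minus HSC-labelled, log2(FPKM + 1) scale) of each member with its 95% interval from limma. The grey band holds the middle 50% of all genes tested, from -0.17 to 0.39, and Atf3, in orange, is the member with an adjusted p below 0.05.

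Fos (ENSMUSG00000021250, chr12:85473890-85477273, plus strand) encodes a FOS protein, which pairs with JUN proteins as AP-1. Its level was 108, 98.1, 105.1, 55.3 and 38.0 FPKM in LSC-labelled libraries 1 to 5, and 144.8, 80.3, 38.7, 47.2 and 131.5 FPKM in HSC-labelled libraries 1 to 5. The groups overlapped, with 4 of 5 LSC-labelled values inside the HSC-labelled range. The log2 fold change was -0.05 (SE 0.410, 95% interval -0.95 to 0.85, limma adjusted p = 0.932, n = 5 each), which leaves room for a change of nearly 1 log2 unit either way. Within a group the highest library exceeded the lowest 2.85 times in LSC-labelled and 3.75 times in HSC-labelled libraries.

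Fosb (ENSMUSG00000003545, chr7:19302696-19310051, minus strand), a FOS relative known for its long-lived truncated form in neurons, was far lower than Fos in every library. It stood at 3.58, 3.39, 3.10, 1.39 and 1.54 FPKM in LSC-labelled libraries, and at 4.40, 0.749, 0.737, 0.791 and 3.13 FPKM in HSC-labelled libraries. In the HSC-labelled group libraries 1 and 5 stood apart from the other three, and all LSC-labelled values lay inside that range. Its log2 fold change was 0.41 (95% interval -0.37 to 1.19, limma adjusted p = 0.381).

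Jun (ENSMUSG00000052684, chr4:95049034-95052222, minus strand) encodes the founding JUN protein, a main partner of FOS and target of JUN N-terminal kinases. It reached 56.4, 32.4, 53.3, 16.8 and 31.6 FPKM in LSC-labelled libraries, against 105.1, 44.9, 25.8, 32.2 and 88.7 FPKM in HSC-labelled libraries. HSC-labelled libraries 1 and 5 were above every LSC-labelled library, while HSC-labelled libraries 2 to 4 were inside the LSC-labelled range. Its log2 fold change was -0.54 (95% interval -1.47 to 0.39, limma adjusted p = 0.337). The antisense gene Junos shares 689 bases with Jun and stood between 0.719 and 2.79 FPKM over all 10 libraries; whether the counting kept strand is not stated.

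Junb (ENSMUSG00000052837, chr8:84974484-84978718, minus strand), a JUN relative whose loss in mice expands myeloid cells, measured 48.2, 16.6, 61.4, 10.4 and 26.8 FPKM in LSC-labelled libraries and 78.6, 60.3, 21.5, 23.2 and 63.9 FPKM in HSC-labelled libraries. LSC-labelled libraries 2 and 4 were below every HSC-labelled library, and the other three were inside the HSC-labelled range. A log2 fold change of -0.67 was estimated (95% interval -1.78 to 0.45, limma adjusted p = 0.321). It shares 351 bases with Prdx2 on the opposite strand, which ran from 191.1 to 266.6 FPKM in LSC-labelled and from 56.1 to 108.9 FPKM in HSC-labelled libraries. If strand was not kept, reads of the shared stretch cannot be told apart.

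Jund (ENSMUSG00000071076, chr8:70698949-70700616, plus strand), the JUN gene usually described as the steadier and less inducible one, was the lowest member on average in both groups. It stood at 1.41, 1.03, 1.87, 0.586 and 0.989 FPKM in LSC-labelled libraries and at 1.30, 1.54, 0.655, 0.508 and 1.42 FPKM in HSC-labelled libraries, and the ranges overlapped in most of their length. Its log2 fold change was 0.07 (95% interval -0.36 to 0.49, limma adjusted p = 0.812). These levels rest on 47 to 219 reads in LSC-labelled and 29 to 142 reads in HSC-labelled libraries, and 67.15% of the bases of its longest transcript are G or C, against 51.9% for Fos. The part of base composition in its level was not tested. The antisense gene Gm11175 shares 919 bases with it and was not analysed here.

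Ier2 (ENSMUSG00000053560, chr8:84661331-84662852, minus strand), a short single-exon gene whose nuclear product is induced with Fos and Jun, had the second largest difference among the members on the deposited scale. It stood at 104.8, 56.0, 120, 44.6 and 69.8 FPKM in LSC-labelled libraries and at 200, 158.1, 57.7, 116.7 and 141.9 FPKM in HSC-labelled libraries. HSC-labelled libraries 1, 2 and 5 were above every LSC-labelled library, and HSC-labelled library 4 was above all of them but library 3. The log2 fold change was -0.75 (95% interval -1.51 to 0.01, limma adjusted p = 0.106), and the exact permutation test over the group labels gave p = 0.0952 (two-sided; 0.00794 is the smallest it can give). Without HSC-labelled library 3 the log2 fold change was -1.02 and passed the test (limma adjusted p = 0.0151). It also passed after median-of-ratios scaling (-0.89, limma adjusted p = 0.0482) and after removal of GC and length trends (-0.76, 0.0292).

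Egr1 (ENSMUSG00000038418, chr18:34859823-34864984, plus strand), a zinc finger transcription factor known in mice to keep haematopoietic stem cells quiescent and in the marrow, had the largest difference among the members on the deposited scale, with the LSC-labelled mean higher; after median-of-ratios and quantile scaling the difference of Ier2 was larger. Its level was 6.45, 5.94, 8.18, 1.72 and 2.09 FPKM in LSC-labelled libraries and 2.62, 4.59, 0.302, 0.862 and 2.77 FPKM in HSC-labelled libraries. LSC-labelled libraries 1 to 3 were above every HSC-labelled library, and LSC-labelled libraries 4 and 5 were inside the HSC-labelled range. The log2 fold change was 0.89 (95% interval -0.10 to 1.87, limma adjusted p = 0.138; exact permutation p = 0.127). HSC-labelled libraries 3 and 4 rest on 36 and 137 reads.

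Nr4a1 (ENSMUSG00000023034, chr15:101254269-101274795, plus strand) encodes the orphan nuclear receptor NUR77, and mice without it and its relative Nr4a3 develop acute myeloid leukaemia. It measured 12.97, 12.5, 15.7, 4.29 and 6.35 FPKM in LSC-labelled libraries, and 5.18, 24.4, 2.36, 3.16 and 11.7 FPKM in HSC-labelled libraries. HSC-labelled library 2 was above all others and libraries 3 and 4 of that group were below all others, so the LSC-labelled range lay wholly inside the HSC-labelled one. The estimated log2 fold change was 0.43 (95% interval -0.74 to 1.60, limma adjusted p = 0.553). HSC-labelled library 2, highest of its group for Egr1, Nr4a1 and Jund, also had the highest erythroid marker sum of the group (1697 FPKM, against 128.3 to 449.4 in the others). Its sums for neutrophils (3353 FPKM), megakaryocytes and platelets (282.5) and monocytes and macrophages (4831) were the highest of the group as well. Those for B cells, T and NK cells, mast cells and basophils, and endothelium and stroma were the lowest. The part of other cells in the levels of these genes was not tested.

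Atf3 (ENSMUSG00000026628, chr1:191170296-191218039, minus strand), a stress-induced bZIP factor that represses or activates transcription depending on its partner, was the member that passed. It stood at 1.10, 1.30, 1.90, 1.25 and 0.554 FPKM in LSC-labelled libraries and at 2.66, 1.60, 2.68, 1.69 and 2.20 FPKM in HSC-labelled libraries. LSC-labelled library 3 was inside the HSC-labelled range and the other four were below it. Means were 1.22 ± 0.482 FPKM in LSC-labelled and 2.17 ± 0.512 FPKM in HSC-labelled libraries (SD, n = 5 each), and the log2 fold change was -0.53 (SE 0.169, 95% interval -0.90 to -0.15, limma adjusted p = 0.0280; exact permutation p = 0.0238). The values rest on 52 to 288 reads in LSC-labelled and 129 to 266 reads in HSC-labelled libraries. The call did not survive leaving out LSC-labelled library 1 (adjusted p = 0.0528) or 5 (0.0621), or HSC-labelled library 1 (0.0629), 3 (0.0623) or 5 (0.0521), although the limma log2 fold change stayed between -0.63 and -0.40 over the 10 fits without 1 library. It was also lost in the limma fit without the low-value filter (adjusted p = 0.0773).

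Zfp36 (ENSMUSG00000044786, chr7:28376784-28380253, minus strand) encodes tristetraprolin, which binds AU-rich elements and speeds the decay of the mRNAs that carry them. Its level was 45.9, 30.9, 56.5, 17.1 and 18.3 FPKM in LSC-labelled libraries and 85.2, 46.2, 14.8, 25.5 and 59.7 FPKM in HSC-labelled libraries. All LSC-labelled values were inside the HSC-labelled range. The estimated log2 fold change was -0.36 (95% interval -1.38 to 0.67, limma adjusted p = 0.576). The antisense gene Gm44710 shares 1274 bases with it and did not exceed 0.931 FPKM.

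The members varied together from library to library within each group. Measured from its own group's mean on the log2(FPKM + 1) scale, the mean of the 10 members was 0.45, 0.04, 0.64, -0.71 and -0.42 in LSC-labelled libraries 1 to 5, and 0.60, 0.31, -0.84, -0.56 and 0.49 in HSC-labelled libraries 1 to 5. The same mean over all genes tested lay between -0.03 and 0.03 in LSC-labelled and between -0.11 and 0.08 in HSC-labelled libraries. In LSC-labelled libraries 4 and 5, 9 and 10 of the members were below their group mean, and in HSC-labelled libraries 3 and 4, 9 and 10 were. LSC-labelled library 3 and HSC-labelled library 5 had 0 members below the mean. The 10 genes summed to 388.7, 258.1, 427.1, 153.3 and 196 FPKM in LSC-labelled libraries and to 629.8, 422.8, 165.1, 251.8 and 506.9 FPKM in HSC-labelled libraries. Within each group the highest and lowest sums lay farther apart than the group means did.

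This spread set most members apart from other genes. The median SD within the LSC-labelled group was 0.674 log2 units for the members and 0.155 over all genes tested, and within the HSC-labelled group it was 0.845 and 0.232. Junb varied more than 99.7% of genes in LSC-labelled libraries, and Nr4a1 more than 99.1% in HSC-labelled libraries. Atf3 and Jund, the lowest members, where this scale compresses differences, ranked lowest by this SD: Atf3 varied more than 86.2% of genes in LSC-labelled and 51.4% in HSC-labelled libraries, and Jund more than 85.9% and 74.5%. As a ratio of highest to lowest LSC-labelled library, Atf3 (3.43 times) and Jund (3.19) spanned more than Fosb (2.58), Ier2 (2.69) and Fos (2.85). Egr1 spanned 4.76 times between its lowest and highest LSC-labelled library and 15.2 times in the HSC-labelled group, where Nr4a1 spanned 10.3 times and Fosb 5.97 times. For 7 of the 10 members the lowest pair of LSC-labelled values came from libraries 4 and 5, against 4.62% of all genes tested. For 8 of the 10 the lowest pair of HSC-labelled values came from libraries 3 and 4, against 32.7% of all genes tested. These libraries were singled out after the values were seen, and the members are not independent of each other.

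**Figure D3:**
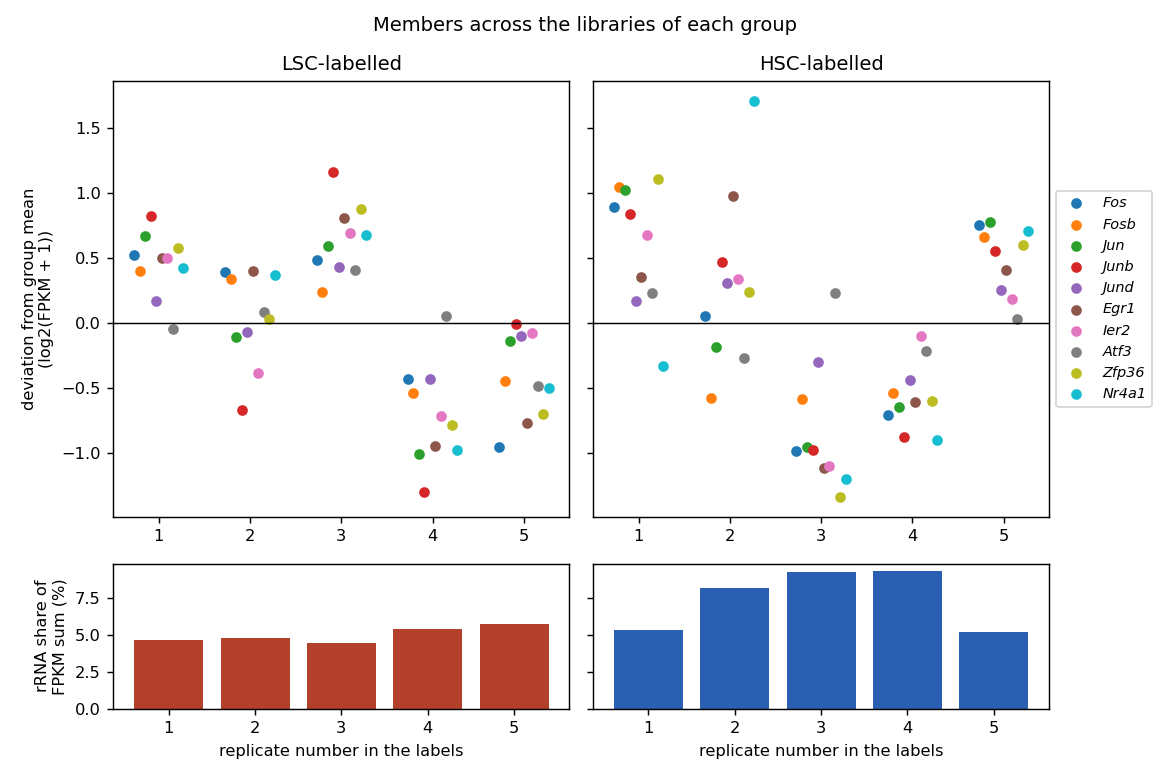
Upper panel: deviation of each member from its group mean (log2 scale) in each library, LSC-labelled left of HSC-labelled. Lower panel: ribosomal RNA share of each library in percent of the FPKM sum. The lowest columns, LSC-labelled 4 and 5 and HSC-labelled 3 and 4, are those with the highest ribosomal shares of their groups.

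The ribosomal RNA share moved with this pattern. It was 4.66%, 4.78%, 4.41%, 5.38% and 5.72% in LSC-labelled libraries 1 to 5, and 5.32%, 8.15%, 9.26%, 9.33% and 5.15% in HSC-labelled libraries 1 to 5, so the 4 libraries in which the members were low had the highest shares of their groups. HSC-labelled library 2 had a share of 8.15% and members above the group mean. The part of RNA quality in the members' levels was not tested. Ier2 was the 1 member called without HSC-labelled libraries 3 and 4 (log2 fold change -1.15, limma adjusted p = 0.0178), while 35.7% of all genes tested passed. Without these libraries Atf3 was not called (-0.52, 0.0719), and Jund and Nr4a1 lay below 0 at -0.18 and -0.27. Without those and LSC-labelled libraries 4 and 5, Egr1 was the 1 member called and was higher (0.88, limma adjusted p = 0.0244), while 21.8% of all genes tested passed. The libraries left out were singled out after the members' values were seen. The p-values of these fits are therefore descriptive and do not test the members. With the ribosomal share as a covariate, 6 members were lower, with limma log2 fold changes of -1.62 for Jun, -1.67 for Junb, -1.51 for Zfp36, -1.37 for Ier2, -1.14 for Fos and -0.70 for Atf3, 0 were higher, and 26.6% of all genes tested passed. The share is itself higher in 3 of 5 HSC-labelled libraries than in any LSC-labelled one, so in that fit the covariate and the group are partly the same.

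Set against the mean of the 10 members in its own library, 8 of the 10 genes had a smaller SD within both groups than before, while the SD of Atf3 was larger in both groups and that of Jund larger in the HSC-labelled one. On this scale Egr1 lay at -1.28, -0.96, -1.16, -1.57 and -1.67 in LSC-labelled libraries and at -2.57, -1.65, -2.61, -2.37 and -2.41 in HSC-labelled libraries. All LSC-labelled values but that of library 5 were above all HSC-labelled ones, with HSC-labelled library 2 the nearest. Ier2 lay at 2.55, 2.08, 2.56, 2.50 and 2.85 in LSC-labelled libraries, and at 3.22, 3.18, 2.88, 3.61 and 2.84 in HSC-labelled libraries, and here the groups overlapped only by LSC-labelled library 5 and HSC-labelled library 5. The mean difference was 1.00 for Egr1 and -0.64 for Ier2. Fos differed by 0.06 and Jund by 0.18, Fosb by 0.52 and Nr4a1 by 0.54, Zfp36 by -0.25, Atf3 by -0.42, Jun by -0.43 and Junb by -0.56, and the groups overlapped for every member. These differences sum to about 0 by construction, since each gene is part of the mean it is set against, and they are given as a description. The smaller SDs are in part built in the same way. They also follow from the shared movement described above, so they are no separate result.

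**Figure D4:**
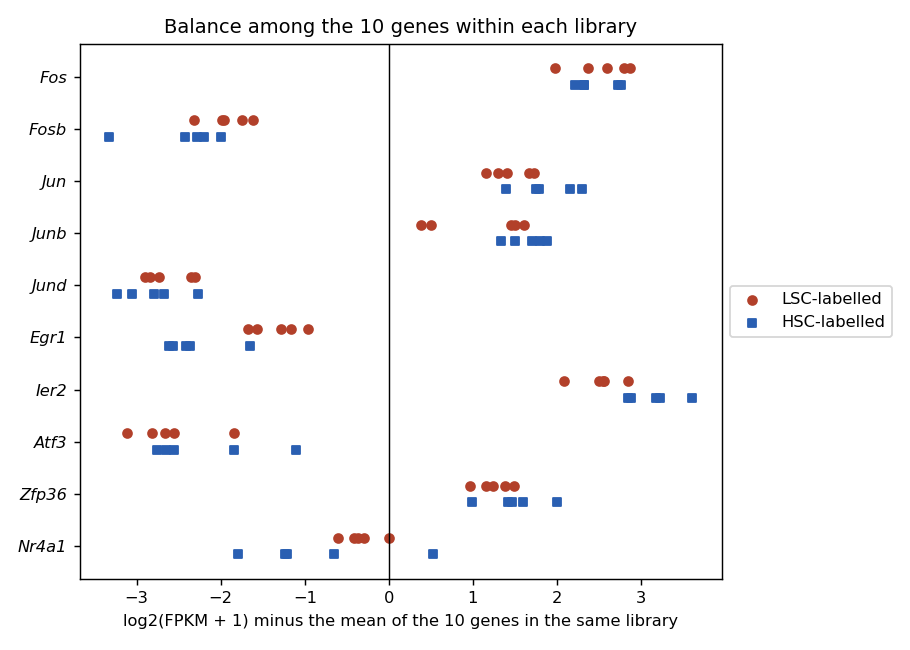
Level of each member minus the mean of the 10 members in the same library (log2 scale, horizontal axis), 1 point per library. In each gene's row LSC-labelled libraries (circles) are drawn above HSC-labelled libraries (squares). Egr1 lies farther right in LSC-labelled libraries (mean -1.33, not drawn) than in HSC-labelled libraries (mean -2.32), and Ier2 lies farther left (2.51 and 3.15).

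The genes closest to each member across the 10 libraries were found from the root mean square difference of centred log2(FPKM + 1) profiles. Zfp36 and Jun were nearest to each other among the members (0.302), and Fos was nearest to Zfp36 (0.311), Junb to Jun (0.368), Ier2 to Jun (0.375), Fosb to Fos (0.386) and Egr1 and Nr4a1 to each other (0.424). Beyond the members, Fos was closest to the vault RNA Vaultrc5 (0.274) and to Btg2 (0.318), itself an immediate early gene with a growth-restraining product. Btg2 stood at 37.5, 41.3, 36.2, 28.8 and 24.3 FPKM in LSC-labelled libraries and at 50.2, 34.5, 17.1, 26.1 and 42.3 FPKM in HSC-labelled libraries, low in the same libraries as Fos. Fosb was closest to Ier3 (0.369) and Btg2 (0.369), and Zfp36 to Vaultrc5 (0.339) and Hist1h3e (0.452). Nr4a1 was closest to Clec4a1 (0.366) and Clec4a3 (0.374), which encode C-type lectin receptors of myeloid cells, and Egr1 to the Y RNA gene Rny1 (0.376) and to Sirpb1a (0.410). Ier2 was closest to Gm22107 (0.206) and to Bbc3 (0.207), which encodes the pro-apoptotic protein PUMA. Jun was closest to Apoe (0.396) and Ccdc61 (0.402), Junb to Ssbp4 (0.378) and Map7d1 (0.395), Jund to Gak (0.0967) and Aup1 (0.103), and Atf3 to Gm12657 (0.161) and Ugdh (0.174). Jund and Atf3 had no member closer than 0.452, which is more than the distance of each from a flat profile (0.299 and 0.365).

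The related lists below are read beside the 27.2% of all genes tested that were higher and the 13.8% that were lower. Among 31 further immediate early genes, 22 were tested, 5 were higher, 3 were lower and 14 did not pass, with a median log2 fold change of 0.03 (-0.07 to -0.12 under the other scalings). The higher ones of largest change were Ccn1, a secreted matricellular protein (2.47 ± 1.42 FPKM in LSC-labelled and 0.517 ± 0.455 FPKM in HSC-labelled libraries, log2 fold change 1.16, limma adjusted p = 0.00482), Myc, the growth-promoting transcription factor and most abundant gene of the list (245.5 ± 21.3 and 136.5 ± 29.5 FPKM, 0.87, 0.00111), and Nfkbiz, a nuclear regulator of NF-kappaB (0.75, 0.0238). The 3 lower ones were Rhob, a small GTPase (15.1 ± 7.25 FPKM in LSC-labelled and 26.2 ± 7.09 FPKM in HSC-labelled libraries, -0.82, limma adjusted p = 0.0292), Maff, a small MAF protein (-0.65, 0.000971), and Gadd45b, a stress-response gene (-0.61, 0.0246). The call of Ccn1 was lost with the ribosomal share as a covariate (log2 fold change 0.87, limma adjusted p = 0.0972). It was also lost without LSC-labelled libraries 4 and 5 and HSC-labelled libraries 3 and 4 (1.13, 0.0714). The call of Nfkbiz was lost without LSC-labelled library 1 or 3 or HSC-labelled library 4 (limma adjusted p = 0.0510 to 0.0595), without HSC-labelled libraries 3 and 4 together (log2 fold change 0.41, 0.117) and with the ribosomal share as a covariate (0.24, 0.482). The call of Rhob was lost without LSC-labelled library 2, 4 or 5 or HSC-labelled library 1 or 2 (limma adjusted p = 0.0572 to 0.0730), and that of Gadd45b without LSC-labelled library 2 or 3 or HSC-labelled library 1, 3 or 5 (0.0539 to 0.0624). Myc stood at 236.5, 225, 281.3, 239.3 and 245.4 FPKM in LSC-labelled libraries and at 161, 152.7, 85.8, 142.1 and 140.9 FPKM in HSC-labelled libraries. In HSC-labelled library 3 both Myc and the members were low, and in LSC-labelled libraries 4 and 5, where the members were low, Myc was inside the range of the other three.

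Of 13 AP-1 partner genes 10 were tested, 1 was higher and 3 lower (median -0.11, and -0.23 under each of the other scalings). Batf3 was higher at 1.78 FPKM in LSC-labelled and 0.680 FPKM in HSC-labelled libraries (log2 fold change 0.76, limma adjusted p = 0.00399). Its call was lost with the ribosomal share as a covariate (0.51, 0.0972) and without LSC-labelled libraries 4 and 5 and HSC-labelled libraries 3 and 4 (0.70, 0.0736). Fosl2, which encodes the FOS relative FRA2, was lower at 2.64 ± 0.879 FPKM in LSC-labelled and 5.27 ± 1.19 FPKM in HSC-labelled libraries (-0.79, limma adjusted p = 0.00553), as were Maff and Batf (-0.54, 0.0174), the most abundant of the list at 42.5 ± 7.55 and 62.7 ± 13.9 FPKM.

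Of 25 upstream activators all were tested, with 5 higher, 5 lower and 15 not passing (median -0.11). Under the other scalings 9 or 10 were lower and 3 or 4 higher, with medians from -0.26 to -0.17. The kinase genes Mapk9 (JNK2) and Rps6ka3 (RSK2) were higher, Mapk9 at 15.6 ± 2.18 FPKM in LSC-labelled and 7.62 ± 2.52 FPKM in HSC-labelled libraries (log2 fold change 0.97, limma adjusted p = 0.00107) and Rps6ka3 at 2.77 ± 0.250 and 1.21 ± 0.113 FPKM (0.77, 5.44e-05). Crtc3, a CREB coactivator, was also higher (0.53, limma adjusted p = 0.00888), a call lost without HSC-labelled libraries 3 and 4 (0.40, 0.0522). Rps6ka1 (RSK1), the most abundant activator, was lower at 89.4 ± 12.2 FPKM in LSC-labelled and 150.7 ± 10.8 FPKM in HSC-labelled libraries (-0.75, limma adjusted p = 0.000153), with Mapk7 (ERK5; -0.76, 0.00318) and Mrtfa, an SRF coactivator (-0.65, 0.00364). The RSK genes thus passed in opposite directions.

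Of 22 feedback inhibitors 17 were tested, with 5 higher, 2 lower and 10 not passing (median 0.26, and 0.11 to 0.13 under the other scalings, with 3 higher after quantile normalization). Zfp36l1, a relative of Zfp36 that also binds AU-rich elements, was higher at 9.06, 5.22, 11.8, 3.40 and 7.27 FPKM in LSC-labelled libraries, against 1.16, 6.83, 0.668, 0.538 and 2.0 FPKM in HSC-labelled libraries (log2 fold change 1.56, limma adjusted p = 0.0133), where library 2 was inside the LSC-labelled range. Spry1 and Spred2, brakes on RAS and MAP kinase signals, were higher (0.73 and 0.66, limma adjusted p = 0.00270 and 0.0114), and Spry2 and the ERK phosphatase gene Dusp7 were lower (-0.66 and -0.37, limma adjusted p = 0.00838 and 0.0464). The call of Dusp7 was lost without LSC-labelled library 2, 3, 4 or 5 or HSC-labelled library 1, 2 or 4 (0.0684 to 0.110), and those of Zfp36l1 and Spred2 without HSC-labelled libraries 3 and 4 together (0.0932 and 0.0760). Nfkbia, the NF-kappaB inhibitor and most abundant of the list, did not pass at 76.6 ± 9.95 FPKM in LSC-labelled and 80.1 ± 33.3 FPKM in HSC-labelled libraries. Dusp1, a MAP kinase phosphatase named here after its values were seen, followed the library pattern of the members at 71.8, 64.5, 80.8, 46.0 and 28.4 FPKM in LSC-labelled and 59.5, 139.4, 20.3, 16.4 and 69.9 FPKM in HSC-labelled libraries (log2 fold change 0.26, limma adjusted p = 0.732).

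Transcripts known as targets of tristetraprolin did not move in 1 direction. Of 12 such genes 7 were tested, 2 higher, 1 lower and 4 not passing (median 0.08, and 0.04 to -0.07 under the other scalings). Il1b was higher at 7.75 ± 4.46 FPKM in LSC-labelled and 1.18 ± 0.693 FPKM in HSC-labelled libraries (log2 fold change 1.90, limma adjusted p = 0.000937), and so was Ccl4 at 41.9 ± 11.7 and 18.1 ± 14.5 FPKM (1.45, 0.0218). The call of Ccl4 was lost without LSC-labelled library 3 (limma adjusted p = 0.0531) or HSC-labelled library 4 (0.0559). Its log2 fold change was 0.97 without HSC-labelled libraries 3 and 4 (0.141) and 0.22 with the ribosomal share as a covariate (0.561). Tnf was lower at 2.73 ± 0.977 FPKM in LSC-labelled and 4.91 ± 0.949 FPKM in HSC-labelled libraries (-0.69, limma adjusted p = 0.0146). Ccl3, the most abundant of the list, averaged 43.9 and 69.9 FPKM and did not pass (-0.64, limma adjusted p = 0.0925). The 3 cytokine genes that passed are also expressed by the monocytes and neutrophils whose markers differed between the groups.

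The heat shock and chaperone genes that passed were all higher. Of 14 genes 12 were tested, 8 were higher, 0 were lower and 4 did not pass, beside 27.2% higher and 13.8% lower over all genes tested, and the median was 0.71 against 0.11. Under the other scalings 7 or 8 were higher and 0 lower. Hsph1 (29.6 ± 3.38 FPKM in LSC-labelled and 13.8 ± 2.77 FPKM in HSC-labelled libraries, log2 fold change 1.06, limma adjusted p = 0.000148), the mitochondrial co-chaperonin gene Hspe1 (1.05, 0.000786) and Dnajb4 (0.93, 0.0162) had the largest changes among those that passed. The call of Dnajb4 was lost with the ribosomal share as a covariate (0.75, limma adjusted p = 0.168) and without LSC-labelled libraries 4 and 5 and HSC-labelled libraries 3 and 4 (0.76, 0.0686). Hsp90ab1, the most abundant over the 10 libraries (in HSC-labelled libraries alone Hspa8 was higher, at 878.8 FPKM), was higher at 1094 ± 48.5 FPKM in LSC-labelled and 752.3 ± 68.7 FPKM in HSC-labelled libraries (0.54, limma adjusted p = 0.000548). The inducible Hspa1a, named here after its values were seen, did not pass (log2 fold change 1.15, limma adjusted p = 0.216), with 7.53, 9.50, 6.81, 1.08 and 3.82 FPKM in LSC-labelled and 16.8, 0.0730, 0.647, 0.685 and 1.46 FPKM in HSC-labelled libraries. The sum of the list did not follow the members. In HSC-labelled libraries 3 and 4, where the members were low, it was 2635 and 2745 FPKM, against 1809 to 2263 in the others. This sum is led by Hspa8, Hsp90ab1 and Hsp90aa1, each highest in those libraries (Hspa8 at 1093 and 1238 FPKM). Single genes differed: of those tested, Bag3 (4.85 and 6.49 FPKM, against 8.99 to 9.89 in the others), Hsf1 and Hspe1 were lowest there. Hspa1a and Dnajb1 were lowest in LSC-labelled libraries 4 and 5. Over all 6 lists, 90 of 111 distinct genes were tested, and 26 (28.9%) were higher and 13 (14.4%) lower, near the 27.2% and 13.8% of all genes tested. Without HSC-labelled libraries 3 and 4 these counts were 16 and 18. In that fit 35.7% of all genes tested passed and 58.4% of those calls were higher, against 41% and 66.3% with all libraries.

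**Figure D5:**
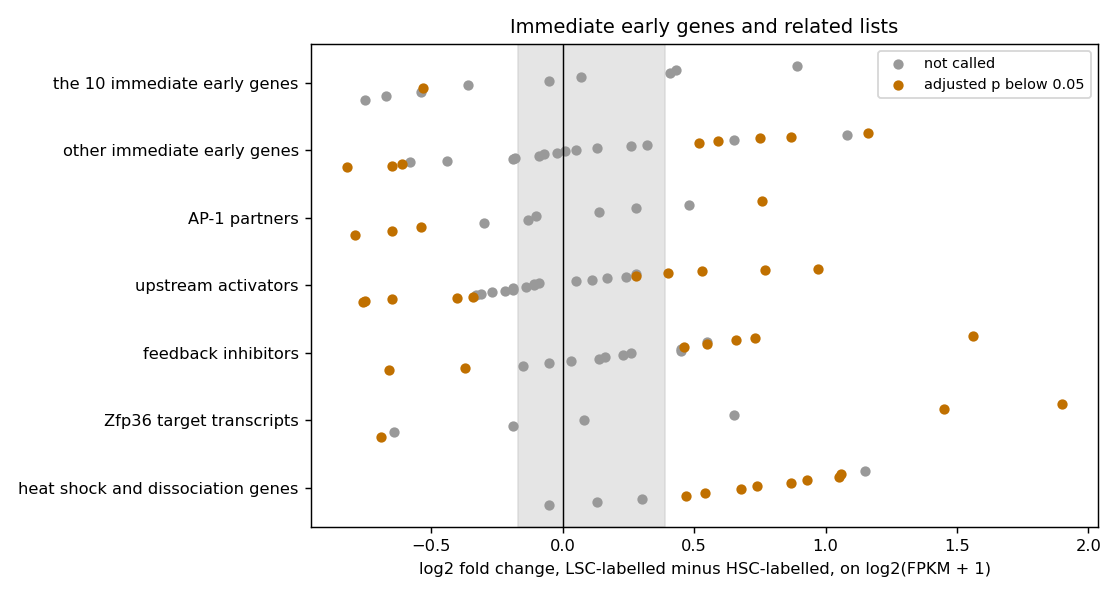
Log2 fold change (LSC-labelled minus HSC-labelled) of each tested gene of the members and the 6 related lists, 1 point per gene, with the height in a row only separating points. The grey band holds the middle 50% of all genes tested, and orange points have an adjusted p below 0.05; 8 of the 12 heat shock genes tested are orange and lie right of the band, and Atf3 is the orange point of the 10 members.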

How the data were processed

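The authors deposited 1 table of FPKM values for 51456 gene IDs in 10 libraries; no other per-sample column was present. Per the labels' protocols, RNA was extracted with a miRNeasy kit, amplified by the Geo-seq method and built into libraries with a transposase kit; the submitters' processing notes name mm10, Bowtie 0.12.9, Cufflinks 2.1.1, HTSeq and DESeq2 but not what each did. For strandedness and the gene annotation used, nothing is stated in the sources at hand. Of the IDs, 51246 matched GENCODE M21 (GRCm38) and 210 did not; 4 list genes were matched through RefSeq synonyms.

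FPKM are not counts, so limma 3.58.1 (R 4.3.3; group as the only term, trended moderation of variances, two-sided p) was run on log2(FPKM + 1) of the 13431 genes that reached 1 FPKM in 5 or more libraries; on this scale changes of low genes are understated. No count test was run. Depth was estimated from FPKM times exonic length, in which 99.5% to 99.7% of low values of single-transcript genes were whole within 0.05 of a read; 69% to 85% of these steps were even, so fragments may be fewer. Intervals are limma's 95% intervals. The exact permutation test enumerated every assignment of the 10 libraries to groups of 5. Python 3.11.15, numpy 2.4.6, pandas 2.3.3, scipy 1.17.1 and matplotlib 3.10.9 were used, and the fit was tested on simulated data.

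The members, gene lists and marker lists were chosen with earlier results of these data known. In each related list, up to 3 called genes of largest change in each direction and the most abundant gene are named; for each member, the 2 nearest genes by profile; in each marker list, the most abundant gene. Alternatives covered pseudocounts, filters, scalings, GC and length trends, the replicate block and each library left out. After the values were seen, fits were added with the ribosomal share as a covariate and without libraries in which the members were low. The latter left out HSC-labelled libraries 3 and 4, alone or with LSC-labelled libraries 4 and 5.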

Additional observations from a re-analysis of the deposited data

How the results depend on the processing

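Of the members, 1 was called lower (Atf3) and 0 higher. The called number was 0 without the low-value filter and 0 with a filter of 5 FPKM in 5 libraries, which removes Atf3, and 2 (Atf3 and Ier2, both lower) with median-of-ratios scaling or after removing trends with GC content and length. With 1 library left out it ran from 0 to 1, called lower in each case. Among settings chosen after seeing the data, the ribosomal share as covariate gave 6 called lower, and leaving out LSC-labelled libraries 4 and 5 with HSC-labelled libraries 3 and 4 gave 1 higher and 0 lower. Related genes called higher, 26, became 16 with the 5 FPKM filter, 16 without HSC-labelled libraries 3 and 4, and 12 both without the 4 libraries and with the covariate. Of all genes tested 45%, 35.7%, 21.8% and 26.6% passed in these settings, in that order, against 41% in the main fit. The shares of those calls that were higher were 67.9%, 58.4%, 57.1% and 55.5%. Related genes called lower, 13, became 8 with the 5 FPKM filter, 20 with median-of-ratios or quantile scaling and 21 with trends removed. Under these scalings the median of all genes tested, 0.11, was -0.01, -0.02 and 0.01, and the share of calls that were higher, 66.3%, was 50.8%, 49.6% and 52.2%. The cause of these moves was not tested.

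Small differences turned sign. Fos ran from -0.30 to 0.19 with 1 library left out, and Jund from -0.04 to 0.17. Jund was -0.15 after quantile normalization, -0.18 without HSC-labelled libraries 3 and 4, -0.002 without the 4 libraries and -0.28 with the covariate; Nr4a1 was -0.27 without HSC-labelled libraries 3 and 4 and -0.24 with the covariate, and Fosb -0.55 with the covariate. The exact test on rank sums also called only Atf3 (p = 0.0318).

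Not every same-numbered pair deviated together: correlations were 0.11, 0.12, -0.29, 0.22 and 0.05, and 4 of 10 libraries were closest to their own number, so the numbers were not taken as pairs. The replicate block called 1 member, 26 related genes higher and 14 lower.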
